A study of Mus musculus with 12 samples.

Results

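Heat shock and chaperone genes were examined in mouse common lymphoid progenitors (CLPs) of WT, ∆Firre and Firre rescue mice. The set held 10 genes, found by their symbols in a table of 47643 genes: the Hsp70 genes Hspa1a, Hspa1b and Hspa8, the Hsp90 genes Hsp90aa1 and Hsp90ab1, the Hsp110 gene Hsph1, the Hsp40 gene Dnajb1, the mitochondrial chaperonin genes Hspd1 and Hspe1, and the Hsp90 co-chaperone gene Fkbp4. All 10 were among the 14479 genes tested, which had a mean of at least 1 TPM, the abundance of a transcript scaled by its length and by the library total, over the 12 libraries. Hspa1a passed this limit through the rescue libraries alone, since its mean over the WT and ∆Firre libraries was 0.248 TPM.

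The 12 poly(A)+ RNA-seq libraries, 4 per group, came from CLPs sorted as Lin– Sca1lo cKitlo IL7Rα+ bone marrow cells of male mice aged 27 to 32 weeks. WT mice carried the intact X-linked Firre locus, which encodes a long noncoding RNA. ∆Firre mice, labelled KO, carried a germline deletion of the whole Firre gene body and its promoter, made with CMV-Cre and crossed onto C57BL/6J. Rescue mice carried the same deletion, a Firre cDNA transgene driven by a tetracycline-responsive minimal CMV promoter and placed by pronuclear injection, and a CAG-rtTA3 transgene, and were fed doxycycline. The transgenes and doxycycline were present in the rescue group alone, so their parts cannot be told apart. The libraries are named here by their labels, such as WT-8, KO-8 and R-1. Each came from 1 mouse.

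Heat shock proteins are molecular chaperones that bind unfolded or partly folded proteins. Hsp70 proteins bind and release their clients with the help of J-domain proteins of the Hsp40 family, which stimulate ATP hydrolysis, and of nucleotide exchange factors such as Hsp110. Hsp90 acts later, on signalling kinases and steroid receptors, together with co-chaperones, while Hsp60 and Hsp10 form a folding chamber in mitochondria. Many of these genes are transcribed at a basal level in every cell and are induced on stress by heat shock factor 1 (Hsf1), which binds arrays of the unit GAA and its reverse complement TTC in their promoters. Hspa1a and Hspa1b are the strongly inducible Hsp70 genes of the mouse, and in sorted cells they can also be induced by handling.

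The promoters are shown for the inducible Hsp70 pair and for the chaperonin pair, because the first gave the largest differences of the set and the members of the second, which share a promoter region, differed from each other. RefSeq promoter windows on GRCm38.p6, reaching from 250 bases before to 50 bases after each annotated start, were matched for 7 of the 10 genes, with 10 windows. Hspa8, Hsp90aa1 and Hsp90ab1 were not matched. The windows were searched on both strands for 2 adjoining heat shock units, GAANNTTC or TTCNNGAA, and for 3 units, GAANNTTCNNGAA or TTCNNGAANNTTC, where a 3-unit match also holds 2-unit matches. Of all 32851 windows of this length, 15.1% held a 2-unit match and 0.603% a 3-unit match. The 250 bases before the starts of Hspa1a (chr17:34972157-34972406, minus strand) and Hspe1 (chr1:55087898-55088147, plus strand) are given 5′ to 3′, with bases in a match in capitals.
Hspa1a: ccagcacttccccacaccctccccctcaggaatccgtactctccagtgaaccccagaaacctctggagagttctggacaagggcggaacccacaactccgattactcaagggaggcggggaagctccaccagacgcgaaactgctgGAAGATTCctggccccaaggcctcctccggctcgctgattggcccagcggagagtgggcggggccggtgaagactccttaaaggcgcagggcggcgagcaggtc
Hspe1: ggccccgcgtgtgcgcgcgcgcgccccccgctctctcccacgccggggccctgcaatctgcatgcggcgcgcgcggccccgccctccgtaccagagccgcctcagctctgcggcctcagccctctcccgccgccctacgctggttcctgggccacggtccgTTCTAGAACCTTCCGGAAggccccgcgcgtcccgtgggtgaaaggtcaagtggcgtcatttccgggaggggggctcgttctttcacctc

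The Hspa1a window held the single match GAAGATTC, which began 104 bases before the start. The Hspa1b window held the same match at the same distance, and the windows of the 2 genes were identical at 296 of 300 positions. In Hspe1, the matches TTCTAGAA, GAACCTTC and TTCCGGAA overlapped in a single run of alternating units at chr1:55088059-55088076. The run also lay in a window of Hspd1, read from the other strand, since Hspe1 (chr1:55088148-55091317) and Hspd1 (chr1:55077833-55088243) lie head to head and their annotated genes overlap by 96 bases. Hsph1 (chr5:149616843-149636498) held TTCTCGAA before its annotated starts and the 3-unit match TTCTGGAAAGTTC after them. Fkbp4 (chr6:128430103-128438656) held GAAAGTTC, which began 151 bases before its start. In the 2 windows of Dnajb1 (chr8:83608175-83612653) none of these letters was found, which says nothing of other forms of the element or of sites elsewhere. In all, 6 of the 7 genes had a 2-unit match and 3 had a 3-unit match. These matches are a description of sequence and not of binding.

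The libraries held between 10978917 and 32532297 reads, recovered from the spacing of the TPM values, and the 4 rescue libraries were the deepest, with at least 25750907 reads each. By the library numbers in the labels, the rescue libraries also formed a series of their own, while the others fell into a lower-numbered set (WT-8, WT-11, KO-8 and KO-11) and a higher-numbered set (WT-6, WT-10, KO-9 and KO-12). The rescue group therefore cannot be told apart from its series of library numbers. Log2 fold changes of all genes followed exon GC content, with Spearman correlations across genes of -0.361 for ∆Firre against WT, 0.448 for rescue against ∆Firre and 0.32 for rescue against WT. Firre was at 25.2 to 31.6 TPM in WT, at 0 reads in all 4 ∆Firre libraries, where 3 reads would be at most 0.0746 TPM, and at 59.9, 135, 63.0 and 174 TPM in R-1 to R-4. All 10 CLP markers, Il7r and Flt3 among them, were found in each group, with sums of 6385 to 8984 TPM in WT, 7524 to 7783 in ∆Firre and 9013 to 9807 in rescue. Dntt made up most of these sums, and limma called 3 of the 10 as higher and 2 as lower in rescue against ∆Firre. The sum of 6 basophil and mast cell markers was 1052 to 9045 TPM in WT, 2918 to 4291 in ∆Firre and 64.0 to 142 in rescue. For 7 committed B lineage markers the sums were 195 to 386, 258 to 339 and 787 to 1276 TPM. Limma called 6 of the 7 as higher and 1, Ms4a1, as lower in rescue against ∆Firre. For 5 antibody-secreting cell markers, of which Jchain made up most in WT and ∆Firre, they were 864 to 1621, 1601 to 3395 and 299 to 517 TPM, and limma called 2 of the 5 as higher and 3 as lower in rescue against ∆Firre. No marker of these 4 lists was at 0 throughout a group. The sums of the T cell, neutrophil, erythroid and plasmacytoid dendritic cell markers overlapped among all 3 groups, and Cd3e was at 0 in the rescue libraries. Of those that passed the filter, limma called 1 of 3 T cell and 1 of 7 neutrophil markers as lower in rescue against ∆Firre. Of 5 plasmacytoid dendritic cell markers it called 2 as higher and 1 as lower, and of 4 erythroid markers 0. Against WT it called 1 T cell and 1 neutrophil marker as lower and 1 erythroid marker as higher. In bulk libraries fewer cells of a type and less RNA per cell cannot be told apart, and the part of these shifts in the levels of the chaperone genes was not tested.

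In WT CLPs the set spanned a wide range of levels on the TPM scale, which is per length. Hsp90ab1 (chr17:45567778-45573261) was the highest, at 3575 ± 342 TPM (SD, n = 4), above 99.9% of the genes tested. Hspa8 followed at 1203 ± 146 TPM and Hsp90aa1 at 958 ± 151 TPM, and the libraries of these neighbours overlapped. Then came Hspd1 at 509 ± 52.2 TPM, and Hspe1 at 272 ± 37.7 and Fkbp4 at 263 ± 18.0 TPM, whose libraries overlapped with each other. Dnajb1 was at 111 ± 11.2 TPM and Hsph1 at 65.7 ± 23.9 TPM. Hspa1b (1.39 ± 0.418 TPM) and Hspa1a (0.375 ± 0.443 TPM) were at the bottom, overlapped with each other, and rested on at most 23 reads in a WT library. The 10 genes together made up 0.617% to 0.767% of the TPM in WT, 0.517% to 0.650% in ∆Firre and 0.560% to 0.664% in rescue.

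The comparison of rescue with ∆Firre CLPs asked what changed in the chaperone genes with Firre RNA made from the transgene. With limma on log2(TPM + 1) and Benjamini-Hochberg adjustment over all genes tested, 6 of the 10 rose at an adjusted p of 0.1 or less and none fell: Hspa1a, Hspa1b, Hspa8, Dnajb1, Hspe1 and Fkbp4. Over all genes, 27.9% were called, 8.58% as higher and 19.3% as lower. The median log2 fold change was 0.41 over the members and -0.16 over all genes. Against WT, where 24.3% of all genes were called (4.82% higher and 19.4% lower), 3 members rose, Hspa1a, Hspa1b and Dnajb1, and 3 fell, Hsp90aa1, Hsp90ab1 and Hspd1. The medians were 0.06 over the members and -0.21 over all genes. These comparisons share the rescue libraries. Hspa1a passed the filter on low values only through them, so its place in these counts and medians is conditioned on that group. The split of reads between Hspa1a and Hspa1b is uncertain, so their calls may not be separate. Between ∆Firre and WT no member was called, and 0.0207% of all genes were.

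**Figure D1:**
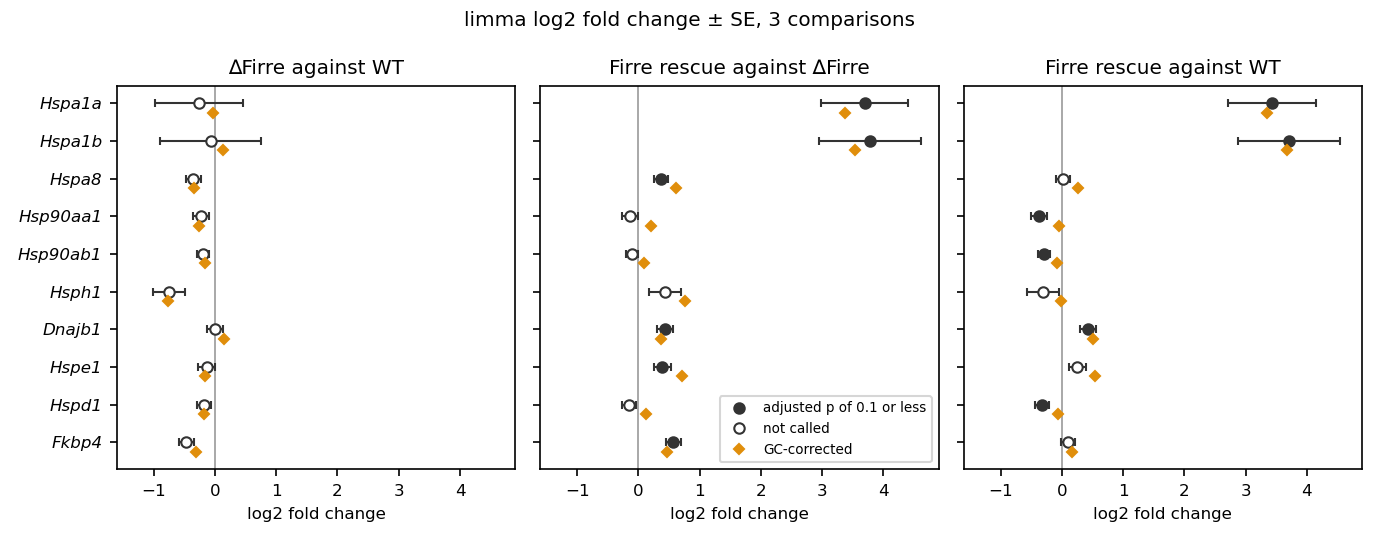
Log2 fold changes on the log2(TPM + 1) scale of the 10 genes (rows) in the 3 comparisons (panels). Circles are limma estimates with bars of 1 SE, filled where the adjusted p was 0.1 or less, and diamonds are estimates after a correction for exon GC content, drawn slightly lower. Hspa1a and Hspa1b stand far to the right in both comparisons of the rescue group, at 3.43 to 3.78, while no circle is filled in the comparison of ∆Firre with WT.

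The inducible Hsp70 genes gave by far the largest differences of the set. Hspa1a (chr17:34969359-34972156) was at 0.638, 0.863, 0 and 0 TPM in WT-6, WT-8, WT-10 and WT-11, from 9, 9, 0 and 0 reads. In KO-8 it was at 0.484 TPM from 7 reads, and KO-9, KO-11 and KO-12 had 0 reads, where 3 reads would be 0.169 to 0.199 TPM. R-1, R-2, R-3 and R-4 had 48.1, 8.13, 1.88 and 31.2 TPM, from 1304, 269, 59 and 873 reads. All 4 rescue libraries were thus above all 8 others, but they spread over 25.6-fold among themselves. The fitted log2 fold change was 3.69 ± 0.71 (SE) against ∆Firre (adjusted p = 0.00474) and 3.43 ± 0.71 against WT (adjusted p = 0.00781). Since Hspa1a passed the filter on low values only through the libraries in which it was high, these values are conditioned on that group, and in the fit of all genes without the filter limma also called the rise (adjusted p = 0.0137 against ∆Firre and 0.0202 against WT).

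Hspa1b (chr17:34956429-34959238) had the same order of libraries within the rescue group, but not within WT, where WT-8, the highest for Hspa1a, was the lowest. It was at 1.58, 0.812, 1.40 and 1.78 TPM in WT-6, WT-8, WT-10 and WT-11, from 8 to 23 reads. In KO-8, KO-9, KO-11 and KO-12 it was at 3.66, 0.238, 1.26 and 0.955 TPM, from 50, 4, 18 and 15 reads. R-1, R-2, R-3 and R-4 had 125, 24.4, 3.001 and 70.4 TPM, from 3191, 763, 89 and 1859 reads. R-3 lay below KO-8, so the rescue and ∆Firre libraries overlapped, while all rescue libraries were above all WT libraries. The log2 fold change was 3.78 ± 0.83 (SE) against ∆Firre (adjusted p = 0.00889) and 3.71 ± 0.83 against WT (adjusted p = 0.011).

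The 2 Hsp70 genes are near-identical copies whose starts lie 12918 bases apart on chromosome 17, and how reads that match both were counted is not given in the sources used here. In the Gencode vM1 transcripts their coding sequences were 99.43% identical, and 59.4% of the 50-base windows of the Hspa1a transcript occurred whole in Hspa1b. The split between them is therefore uncertain. As a single feature they summed to 1.40 to 2.21 TPM in WT, 0.238 to 4.14 TPM in ∆Firre, and 173, 32.5, 4.88 and 102 TPM in R-1 to R-4, so that the rescue libraries were above all others. The sum rose by a log2 fold change of 4.23 against ∆Firre (adjusted p = 0.00484) and 3.98 against WT (adjusted p = 0.00757).

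The size of this rise depended on the pseudocount and on single rescue libraries, although limma called it with each pseudocount tried and whichever of the 12 libraries was left out. Against ∆Firre, the log2 fold change of Hspa1a was 6.33 with a pseudocount of 0.1 and 1.997 with 5, and that of Hspa1b was 4.62 and 2.602. With the pseudocount of 1, the log2 fold change of Hspa1a against ∆Firre was 4.46 without R-3 and 3.10 without R-1, and for Hspa1b it was 4.76 and 3.11. Limma-voom on the recovered reads gave larger log2 fold changes that were not called, 7.65 for Hspa1a (adjusted p = 0.17) and 4.77 for Hspa1b (adjusted p = 0.29) against ∆Firre, and 6.44 (adjusted p = 0.218) and 4.39 (adjusted p = 0.367) against WT.

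**Figure D2:**
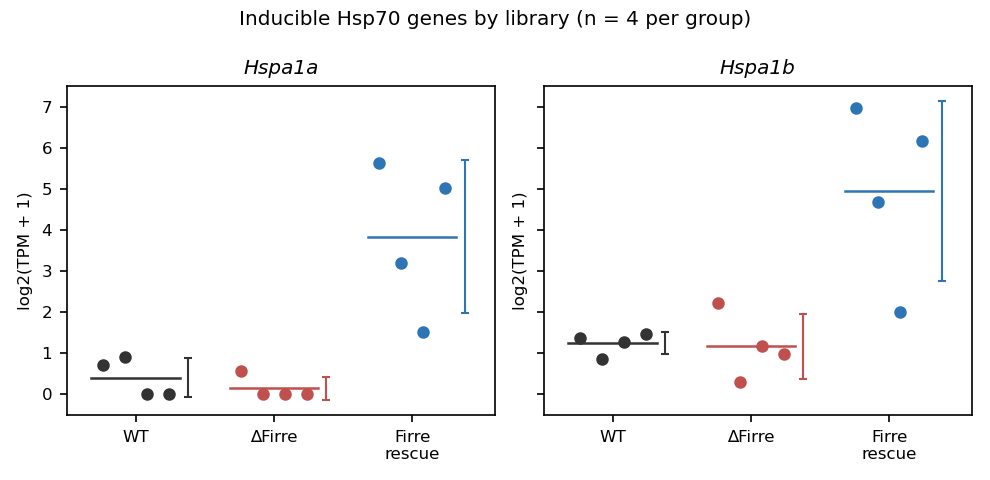
Levels of Hspa1a and Hspa1b as log2(TPM + 1) in each library, with group means (lines) and SDs (bars, n = 4), points in each group from left to right in the order WT-6, WT-8, WT-10, WT-11, KO-8, KO-9, KO-11, KO-12 and R-1 to R-4. The rescue points reach from 1.53 to 5.62 for Hspa1a and from 2.0004 to 6.97 for Hspa1b, and the lowest rescue point of Hspa1b lies under the highest ∆Firre point at 2.22.

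Genes of the early response to stimulation, 18 of whose 20 listed members passed the filter, were measured beside the Hsp70 pair, because Fos and Jun family genes are also induced by handling of cells. In the rescue libraries 13 rose and 3 fell against ∆Firre, where 8.58% and 19.3% of all genes did, and 13 rose and 2 fell against WT, where 4.82% and 19.4% did. Fos stood at 184, 153, 174 and 94.2 TPM in R-1 to R-4, against 3.04 to 19.2 TPM in WT and 0.523 to 26.5 TPM in ∆Firre. Its log2 fold change was 3.91 ± 0.75 (SE) against ∆Firre (adjusted p = 0.00438). Jun rose by 3.80 ± 0.55 (adjusted p = 0.000843) and Fosb by 3.58 ± 0.34 (adjusted p = 6.4e-05). Fosb, at means of 0.0784 TPM in WT and 0.509 TPM in ∆Firre, passed the filter on low values only through the rescue libraries. Its fold changes and p-value, and its place among the 13 that rose, are therefore conditioned on that group. The largest called falls were those of Klf6 (-1.06), Ier3 (-0.83) and Btg2 (-0.38). With a correction for exon GC content Klf6 was at -0.65 and still called, and Btg2 was at -0.14 (adjusted p = 0.462) and no longer called. Against WT, Fosb (4.04), Fos (3.88) and Jun (3.84) rose, with the same limit for Fosb, and Ier3 (-1.23) and Klf6 (-0.996) fell. Within the rescue group the orders differed: R-3, the lowest for Hspa1a and Hspa1b, had the second highest Fos level, and R-4, the second highest for both Hsp70 genes, had the lowest. The part of sorting and handling in either group of genes was not tested.

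Hspa8 (chr9:40801276-40805202) encodes Hsc70, the constitutive Hsp70 of the cytosol. It was at 1370.2, 1165, 1254 and 1023 TPM in WT-6, WT-8, WT-10 and WT-11. KO-8, KO-9, KO-11 and KO-12 had 1134, 827, 941 and 874 TPM. In R-1 to R-4 it was at 1171, 1084, 1213 and 1394 TPM. The rescue libraries lay within the WT range apart from R-4, and the ∆Firre libraries were lower than both except for KO-8, which reached into both ranges. Hspa8 rose by a log2 fold change of 0.37 ± 0.12 (SE) in rescue against ∆Firre (adjusted p = 0.0476), and differed from WT by 0.02 (adjusted p = 0.942). The call against ∆Firre was lost without KO-9 (adjusted p = 0.132), KO-12 (adjusted p = 0.118) or R-4 (adjusted p = 0.128), without the filter on low values (adjusted p = 0.111), and with quantile normalisation, where the log2 fold change was 0.08.

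Dnajb1, the main J-domain partner of the inducible Hsp70, was at 99.9, 122, 119 and 103 TPM in the WT libraries in the same order. The ∆Firre libraries had 126, 87.1, 115 and 119 TPM, and R-1 to R-4 had 155, 130.2, 139.8 and 177 TPM. All 4 rescue libraries were above all 8 others, and WT and ∆Firre overlapped. Dnajb1 rose in rescue by 0.43 ± 0.13 (SE) on the log2 scale against ∆Firre (adjusted p = 0.0357) and by 0.43 ± 0.13 against WT (adjusted p = 0.0407). Against WT the call was lost without R-4 (adjusted p = 0.107) or without WT-6 (adjusted p = 0.1001). Not overlapping were 3 members between rescue and ∆Firre (Hspa1a, Dnajb1 and Fkbp4) and 5 between rescue and WT (Hspa1a, Hspa1b, Dnajb1, Hsp90ab1 and Hspd1), where 21.9% and 18% of all genes did not overlap. The place of Hspa1a in both counts is again conditioned on the rescue group.

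Hsph1, an Hsp110 protein that exchanges the nucleotide of Hsp70, was the most variable of the abundant members within WT. WT-6, WT-8, WT-10 and WT-11 had 82.2, 47.0, 90.2 and 43.6 TPM, and KO-8, KO-9, KO-11 and KO-12 had 49.2, 31.6, 34.8 and 33.7 TPM. R-1 to R-4 had 55.2, 35.5, 46.0 and 69.6 TPM, and overlapped with both other groups. The log2 fold changes of 0.44 ± 0.26 (SE) in rescue against ∆Firre (adjusted p = 0.262) and -0.31 ± 0.26 against WT (adjusted p = 0.439) did not pass the threshold. After a correction for exon GC content the value against ∆Firre was 0.77 (adjusted p = 0.0605) and was called. Against WT it was then -0.0073 (adjusted p = 0.991).

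Neither Hsp90 gene was called as higher in the rescue group. Hsp90aa1 (chr12:110691036-110696395), the more inducible Hsp90, was at 1084, 965, 1039.8 and 744 TPM in the WT libraries. The ∆Firre libraries had 993, 698, 760.4 and 815 TPM, and R-1 to R-4 had 750.1, 648, 758 and 790.3 TPM, of which all but R-2 were above WT-11, the lowest WT library. Hsp90ab1, the constitutive Hsp90, was at 3291, 3608, 4045 and 3355 TPM in WT, at 3146, 2786, 3168 and 3421 TPM in ∆Firre, and at 2698, 2728, 3205 and 3049 TPM in rescue. Here all rescue libraries were below all WT libraries, while they overlapped with ∆Firre. Against WT, Hsp90aa1 fell by 0.37 ± 0.13 (SE) on the log2 scale (adjusted p = 0.0746) and Hsp90ab1 fell by 0.29 ± 0.10 (adjusted p = 0.0574). Once exon GC content was corrected for, the values were -0.04 (adjusted p = 0.878) and -0.08 (adjusted p = 0.686), and neither was called. The call of Hsp90aa1 was lost without any one of WT-6, WT-8, WT-10, R-1 and R-2 (adjusted p = 0.115 to 0.173), and that of Hsp90ab1 without any one of WT-8, WT-10, R-1 and R-2 (adjusted p = 0.104 to 0.152). Against ∆Firre, Hsp90aa1 was at -0.14 (adjusted p = 0.485) and Hsp90ab1 at -0.10 (adjusted p = 0.496), and both signs turned with the GC correction.

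Fkbp4, an immunophilin co-chaperone of Hsp90, had its lowest levels in ∆Firre. WT-6, WT-8, WT-10 and WT-11 had 289, 255, 259 and 248 TPM. KO-8, KO-9, KO-11 and KO-12 had 210.2, 166, 196 and 189 TPM, and R-1 to R-4 had 286, 219.8, 318 and 315 TPM. The highest ∆Firre library was below the lowest library of WT and of rescue, while WT and rescue overlapped. In rescue against ∆Firre, Fkbp4 rose by 0.57 ± 0.12 (SE) on the log2 scale (adjusted p = 0.0067), and by 0.47 after the GC correction (adjusted p = 0.00313). Against WT it differed by 0.10 (adjusted p = 0.58), but was called higher with scaling by the median ratio, at 0.30 (adjusted p = 0.0588), and with limma-voom, at 0.29 (adjusted p = 0.057).

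**Figure D3:**
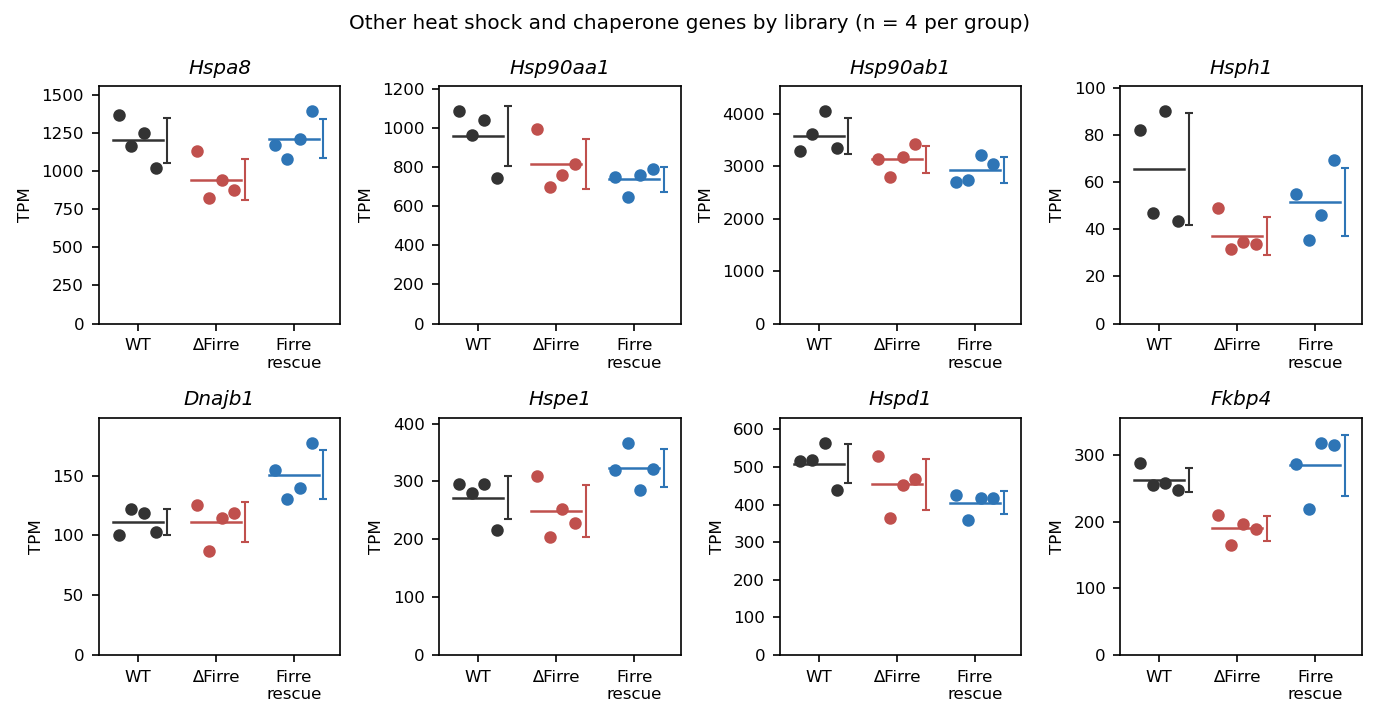
TPM of the other 8 genes in each library, with group means (lines) and SDs (bars, n = 4), each panel with its own scale from 0, points ordered within a group as in the plot of Hspa1a and Hspa1b. Fkbp4 shows the ∆Firre points, at most 210.2 TPM, below all others, Dnajb1 shows the rescue points, at least 130.2 TPM, above all others, and Hsph1 shows WT-8 and WT-11, at 47.0 and 43.6 TPM, apart from WT-6 and WT-10, at 82.2 and 90.2 TPM.

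The mitochondrial chaperonin pair differed from each other in the rescue group. Hspd1 encodes Hsp60, the barrel of the chamber, and Hspe1 encodes Hsp10, its lid. Hspe1 was at 296, 279, 296 and 217 TPM in WT, at 309, 204, 253 and 228 TPM in ∆Firre, and at 320.2, 367, 285 and 322 TPM in R-1 to R-4. Hspd1 was at 515, 518, 564 and 438 TPM in WT, at 529, 365, 453 and 468 TPM in ∆Firre, and at 426, 359, 419 and 417 TPM in R-1 to R-4. The rescue libraries were thus high for Hspe1, overlapping with both other groups, and low for Hspd1, below every WT library. Hspe1 rose by 0.39 ± 0.14 (SE) on the log2 scale against ∆Firre (adjusted p = 0.0635), a call that was lost without any one of KO-9, KO-11, KO-12, R-1, R-2 and R-4 (adjusted p = 0.104 to 0.17), without the filter on low values (adjusted p = 0.118) and without the mean-variance trend (adjusted p = 0.106). Hspd1 fell by 0.32 ± 0.11 against WT (adjusted p = 0.0695), and this was -0.06 after the GC correction (adjusted p = 0.789). Hspe1 against WT, at 0.25 (adjusted p = 0.224), and Hspd1 against ∆Firre, at -0.15 (adjusted p = 0.371), did not pass, so in no comparison were both genes called. With the GC correction Hspe1 was called against ∆Firre, at 0.71 (adjusted p = 0.00615), and against WT, at 0.55 (adjusted p = 0.0269). The call of Hspd1 was also lost without any one of WT-6, WT-8, WT-10, R-2 and R-4 (adjusted p = 0.106 to 0.172).

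The ratio of Hspe1 to Hspd1 within a library, which does not depend on the scaling between libraries, was computed after these values were seen and is given as a description, with no test. It was 0.575, 0.539, 0.525 and 0.495 in WT-6, WT-8, WT-10 and WT-11, and 0.584, 0.558, 0.559 and 0.487 in KO-8, KO-9, KO-11 and KO-12. In R-1 to R-4 it was 0.751, 1.02, 0.681 and 0.772. All 4 rescue ratios were above all 8 others. The log2 ratio was 0.55 higher in rescue than in ∆Firre and 0.58 higher than in WT. With GC-corrected values the differences were 0.58 and 0.61. Between ∆Firre and WT the log2 ratio differed by 0.03. For Hsp90aa1 to Hsp90ab1 the mean ratios were 0.269 ± 0.0449 in WT, 0.261 ± 0.0367 in ∆Firre and 0.253 ± 0.0198 in rescue (SD, n = 4). The 2 chaperonin genes overlap at their starts on opposite strands and the strand setting of the counting is not given in the sources used here, so reads there may have been counted for either gene. The 4 processed copies of Hspe1 listed in the table were at most at 0.575 TPM.

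**Figure D4:**
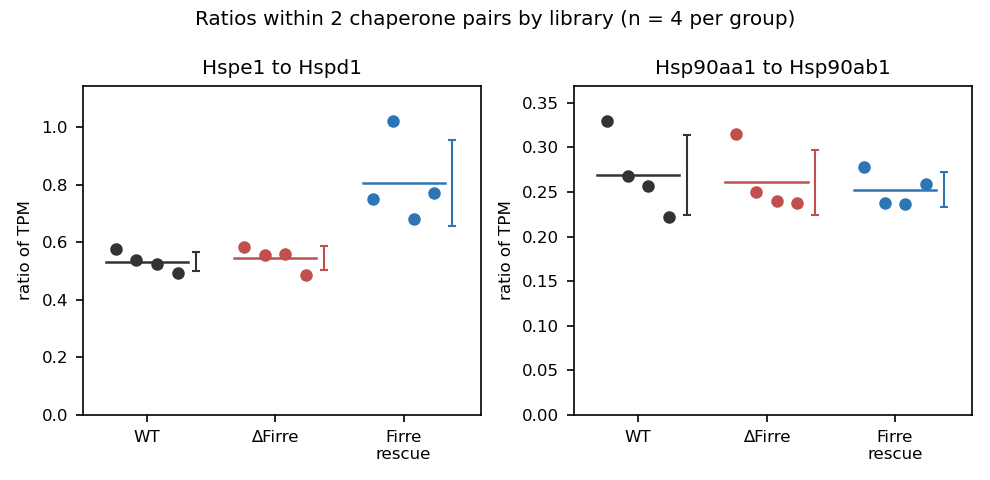
Ratio of TPM values within each library for Hspe1 to Hspd1 and for Hsp90aa1 to Hsp90ab1, with group means (lines) and SDs (bars, n = 4), both axes from 0. The rescue points of Hspe1 to Hspd1, 0.681 to 1.02, lie above all WT and ∆Firre points, at most 0.584, whereas the groups overlap for Hsp90aa1 to Hsp90ab1.

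The comparison of ∆Firre with WT addressed the deletion of the Firre gene body and promoter, without the transgenes or doxycycline. The parts of the RNA and of the deleted DNA cannot be told apart in it. None of the 10 genes was called by limma or by limma-voom on the recovered reads, and all 10 log2 fold changes were below 0, from -0.75 for Hsph1 to -0.0037 for Dnajb1, with a median of -0.21 against -0.06 over all genes. The signs of 5 of the 10 turned under at least 1 alternative. At an unadjusted p under 0.05 there were 3 members, all lower in ∆Firre, against 5.3% of all genes in either direction and 4.12% as lower. These were Fkbp4 with -0.47 ± 0.12 (SE, adjusted p = 0.889), Hspa8 with -0.35 ± 0.12 (adjusted p = 0.889) and Hsph1 with -0.75 ± 0.26 (adjusted p = 0.918). Fkbp4 was the only member whose WT and ∆Firre libraries did not overlap, as was the case for 5.33% of all genes. After the GC correction Fkbp4 was at -0.31.

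The log2 fold changes of ∆Firre against WT were higher among the lower-numbered than among the higher-numbered libraries for all 10 genes. With 2 libraries against 2, Hsph1 differed by -1.37 on the log2 scale in the higher-numbered set and by -0.13 in the lower-numbered set, since WT-6 and WT-10 had 82.2 and 90.2 TPM and WT-8 and WT-11 had 47.0 and 43.6 TPM. For Hspa8 the values were -0.62 and -0.079, and for Fkbp4 -0.62 and -0.31. In the lower-numbered set the differences of Hspa1b (0.53), Hsp90aa1 (0.036), Dnajb1 (0.093), Hspe1 (0.18) and Hspd1 (0.038) were above 0. No member was called within either set. An interaction term in limma gave a difference between the sets of -1.25 ± 0.25 (SE) for Hsph1 (adjusted p = 0.885), which does not pass. Of the 14479 genes limma called none for this term, and 681, or 4.7%, had an unadjusted p under 0.05, among them 3 of the 10 members, Hsph1, Hspa8 and Hspe1. What the library numbers stand for is not given in the sources used here.

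**Figure D5:**
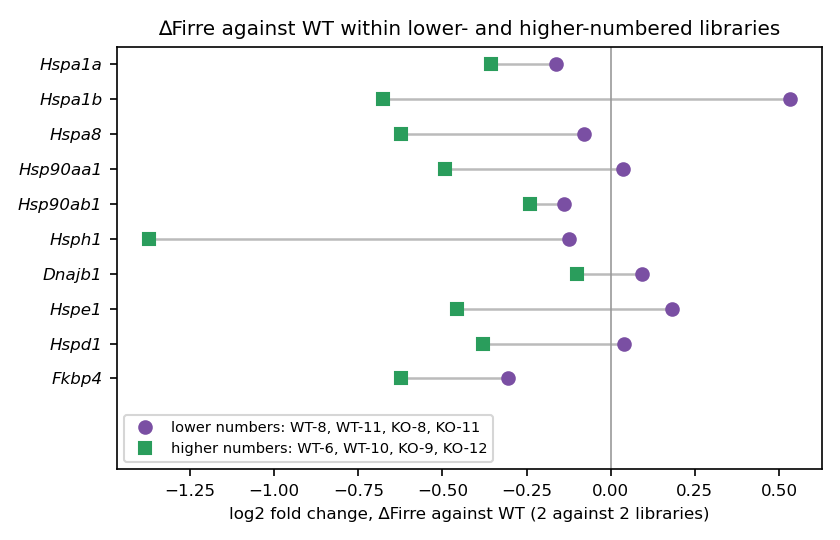
Log2 fold change of ∆Firre against WT for each gene among the lower-numbered libraries (circles) and the higher-numbered libraries (squares), 2 libraries against 2, with a line joining both values of a gene. Every square lies below 0 and left of its circle, with the widest gaps for Hsph1 (-1.37 and -0.13) and Hspa1b (-0.68 and 0.53).

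Correction for exon GC content, on the 13086 genes with a value, left the calls of Hspa1a, Hspa1b, Hspa8, Dnajb1, Hspe1 and Fkbp4 in rescue against ∆Firre in place and added Hsph1. The corrected log2 fold changes were 3.38 for Hspa1a, 3.54 for Hspa1b, 0.61 for Hspa8, 0.37 for Dnajb1 (adjusted p = 0.0754), 0.71 for Hspe1 (adjusted p = 0.00615) and 0.77 for Hsph1 (adjusted p = 0.0605). The exons of the members range from 45.5% GC for Hsp90aa1 to 59.2% for Hspa1a. Against WT, Hspa1a, Hspa1b and Dnajb1 kept their calls and Hspe1 gained one, at 0.55 (adjusted p = 0.0269), while the falls of Hsp90aa1, Hsp90ab1 and Hspd1 were lost. Over these 13086 genes the correction turned the balance of calls, from 1231 higher and 2567 lower to 1795 and 759 against ∆Firre, and from 693 and 2651 to 1336 and 660 against WT. Over all 14479 genes the calls were 1242 higher and 2801 lower, and 698 and 2814, and scaling by the median ratio of the libraries gave 1901 and 1862, and 1305 and 1244. With an empirical null fitted to the central 75% of the statistics, no gene was called in either comparison of the rescue group, members included, while 629 and 1020 had an unadjusted p under 0.05.

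The wider chaperone network was read from lists of 99 further genes, of which 90 passed the filter. In ∆Firre against WT limma called none, and 17, or 18.9%, had an unadjusted p under 0.05, against 5.3% of all genes. In rescue against ∆Firre 14 rose and 9 fell, and against WT 5 rose and 20 fell, with medians of -0.01 and -0.13. The shares called, 25.6% and 27.8%, were near those of all genes, 27.9% and 24.3%. With the GC correction the balance was another one, with 30 higher and 2 lower against ∆Firre and 10 higher and 0 lower against WT. It also turned over the 13086 genes so corrected, to 1795 higher and 759 lower against ∆Firre and 1336 and 660 against WT. The turn itself was thus not particular to these lists. Pfdn6, a subunit of the prefoldin complex that hands actin and tubulin to the cytosolic chaperonin, rose the most, by 1.33 ± 0.16 (SE) against ∆Firre (adjusted p = 0.000238) and by 1.13 ± 0.16 against WT (adjusted p = 0.000916). Its levels of 94.1 to 144 TPM in rescue did not overlap those of WT (46.0 to 67.5 TPM) or ∆Firre (46.2 to 56.8 TPM). The prefoldin subunit gene Pfdn5 rose by 0.78 against ∆Firre (adjusted p = 0.000786) and 0.47 against WT (adjusted p = 0.014). The Hsp70 exchange factor gene Hspbp1 rose by 0.79 against ∆Firre (adjusted p = 0.00371), and Pih1d1, of an Hsp90 adaptor complex, rose by 0.51 against WT (adjusted p = 0.0308). With the GC correction these rises were still called, with Hspbp1 smaller, at 0.41 (adjusted p = 0.0404), and Pih1d1 at 0.54 (adjusted p = 0.0144). Pfdn6 was then at 1.32 and 1.25, and Pfdn5 at 0.82 and 0.61, against ∆Firre and WT. The largest called falls against ∆Firre were Fnip1 (-0.89) and Fnip2 (-0.85), which encode Hsp90 co-chaperones that bind folliculin, and Bag4 (-0.66), an Hsp70 co-chaperone, and the same 3 genes led against WT (-0.80, -0.75 and -0.69). With the GC correction, Fnip1 and Bag4 were called in neither comparison and Fnip2 against ∆Firre alone (-0.56, adjusted p = 0.0536).

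By list, rescue was set against ∆Firre and against WT, where 8.58% and 4.82% of all genes were called higher and 19.3% and 19.4% lower. With the GC correction, 1795 of 13086 genes were called higher and 759 lower against ∆Firre, and 1336 and 660 against WT. The corrected counts by list are to be read beside these. The 16 Hsp90 co-chaperones had 6 higher and 3 lower against ∆Firre, and 1 and 3 against WT, which became 7 and 1, and 3 and 0, with the GC correction. The 14 other Hsp70 genes and exchange factors had 3 higher and 1 lower, and 1 and 4, which became 3 and 0, and 0 and 0. Among the 14 chaperonin and prefoldin subunits the counts were 3 and 0, and 2 and 1, and became 7 and 0, and 3 and 0. The 16 J-domain proteins had 0 higher and 2 lower against ∆Firre, which were Dnajc2 and Dnajc5, and 0 and 4 against WT. With the GC correction both falls were lost, and 5 J-domain genes, Dnaja1, Dnaja2, Dnaja3, Dnajc8 and Dnajc9, were called higher against ∆Firre, with 1 higher and 0 lower against WT. The 10 chaperones of the endoplasmic reticulum had 0 higher and 3 lower (Hsp90b1, Dnajc3 and Canx), and 0 and 5. Here too the correction removed these falls, and Hspa5 and Pdia6 were called higher against ∆Firre, with 0 and 0 against WT. Of 10 mitochondrial chaperones and proteases 1 rose against ∆Firre and 2 fell against WT, and of 7 heat shock factors and regulators 1 rose against ∆Firre and 1 rose and 1 fell against WT. With the correction these became 3 higher and 1 lower, and 2 and 0, for the mitochondrial list, and 3 and 0, and 1 and 0, for the regulators. Of 3 small heat shock proteins that passed the filter limma called none, with none at an unadjusted p under 0.05. The RNA of Hsf1, the main heat shock factor, measured 55.5 ± 4.26 TPM in WT, against 40.7 ± 6.31 TPM in ∆Firre and 45.9 ± 13.8 TPM in rescue (SD, n = 4). Its log2 fold change was 0.13 in rescue against ∆Firre (adjusted p = 0.658) and -0.31 against WT (adjusted p = 0.282). In ∆Firre against WT it was -0.45 (adjusted p = 0.929), which does not pass, although the ∆Firre libraries, at 35.2 to 48.8 TPM, did not overlap with the WT libraries, at 50.6 to 60.9 TPM. Hsf2 was at 29.9 ± 4.35, 28.0 ± 5.68 and 28.8 ± 5.36 TPM and was called in no comparison. The RNA of a heat shock factor does not measure its activity.

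Hspa1a, Hspa1b, Hspa8, Hsp90aa1, Hsph1 and Dnajb1 were correlated unevenly over the 12 libraries (Pearson). The highest values were 0.973 for Hspa1a with Hspa1b and 0.866 for Hspa8 with Hsph1. The lowest were -0.117 for Hsp90aa1 with Dnajb1, -0.330 for Hsp90aa1 with Hspa1a and -0.335 for Hsp90aa1 with Hspa1b. As deviations from the group means these last pairs correlated at 0.589, 0.256 and 0.217, and Hspa8 with Hsp90aa1 at 0.908. Their mean of centred log2 values mostly followed Hspa1a and Hspa1b, which varied the most. Outside the set, the 5 genes most like this mean, by Pearson correlation of log2(TPM + 1), were Gstp1 (0.931), Rpl15 (0.926), Atp5g1 (0.923), Hn1 (0.912) and Snrpd2 (0.911). None of them is a chaperone gene. The mean was highest in R-1 at 1.52 and lowest in KO-9 at -0.89, and the rescue libraries share their depth and series of library numbers, so these correlations describe the libraries and carry no p-value.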

How the data were processed

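Poly(A)+ RNA of 12 CLP libraries was measured. Per the labels and the study's methods, the authors made 1 library per mouse with the CATS RNA-seq kit v2, sequenced them in pools, trimmed reads with cutadapt, aligned them to mm10 with TopHat2 2.1.1, counted them with featureCounts on Gencode annotation, and deposited TPM values per gene. The table had 0 columns of other samples. Symbols came from a gene ID table (32799 of 47643 matched). Read numbers, recovered from how far apart the deposited TPM values lie, were whole within 0.05 reads for 14470 of 14479 genes tested (99.9%). They range from 10978917 to 32532297 per library, intervals from them would cover counting error only, and p-values measure the spread between mice of a group.

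Genes with a mean of at least 1 TPM were fitted with limma 3.58.1 (R 4.3.3) on log2(TPM + 1) of the deposited values, all 3 groups in 1 fit with a mean-variance trend, Benjamini-Hochberg adjusted and called at 0.1, the false discovery rate of the study's methods. Fold changes on this scale understate the change of low genes. Ratios within a library were computed with Python 3.11.15. Exon GC content (NCBIM37, Gencode vM1, 90.4% of genes tested) was removed per library with a spline of 4 degrees of freedom. The fits were tested on simulated data. Named were all 10 members, Hsf1, Hsf2, and in each comparison the 3 called genes with the largest rise and fall of the other chaperone lists and of the early response list. The members and lists were chosen with earlier results of these data known. Alternatives were other pseudocounts, filters, scalings, variance models, thresholds and an empirical null, the GC correction, limma-voom, leaving out each library, and blocks or subsets by library number. GRCm38 coordinates and promoters came from RefSeq.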

Additional observations from a re-analysis of the deposited data

Results flagged for a closer look

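In 2 of the 30 sets of 4 libraries (10 genes in 3 groups), 1 library stood apart from the other 3 by Dixon's test for 4 values at the 95% level, where chance gives about 1.5 of 30. Hspa1a on the log2(TPM + 1) scale was at 0.57 in KO-8, from 7 recovered reads, and at 0 in the other ∆Firre libraries. With these tied at 0, any value above 0 in KO-8 would have been flagged. The number given by chance therefore does not apply to this set. Hspd1 was at 8.49 in R-2 and between 8.71 and 8.74 in R-1, R-3 and R-4, a gap of 0.873 of the range. Without R-2 the fall of Hspd1 in rescue against WT was -0.27 (limma, adjusted p = 0.16, against 0.0695 with it).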

How the results depend on the processing

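No call of a member was made in ∆Firre against WT under any alternative. In rescue against ∆Firre, 6 members were called, 0 with the empirical null and 4 to 7 otherwise. In rescue against WT, 6 were called, 0 with the empirical null, and 3 each without the low-value filter, with TPM recomputed without dominant genes, without the trend, at an adjusted p of 0.05 and with limma-voom, and 3 to 6 when 1 library was left out. Hsp90aa1, Hsp90ab1 and Hspd1 against WT lost their calls with each of these 5 settings, with the median ratio and with the GC correction, and Hsp90aa1 and Hsp90ab1 also in a fit of the 2 groups alone. Scaling by the median ratio moved the median log2 fold change of all genes from -0.16 to -0.05 and from -0.21 to -0.03, and the GC correction moved that of the 13086 genes from -0.14 to 0.079 and from -0.19 to 0.043. Fkbp4 in rescue against WT was called with the median ratio (0.30) and with limma-voom (0.29), Hspe1 with these (0.45 and 0.44), and Hsp90ab1 in rescue against ∆Firre with quantile normalisation (-0.45). Depth limits Hspa1a and Hspa1b in WT and ∆Firre, at no more than 50 reads. The causes of these changes were not tested.

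Signs turned as follows. In ∆Firre against WT, Hspa1b was 0.0070 with a pseudocount of 5 and 0.14 with the GC correction, and Dnajb1 was 0.066 with the median ratio, 0.058 with quantile normalisation, 0.042 without dominant genes, 0.14 with the GC correction and 0.061 with limma-voom. Leaving out 1 library gave -0.065 (without KO-8) to 0.11 (without KO-9) for Dnajb1, above 0 also without WT-8 or WT-10, and -0.42 (without KO-8) to 0.21 (without KO-9) for Hspa1b, above 0 also without WT-11. In rescue against ∆Firre, Hsp90ab1 was 0.022 with the median ratio and 0.020 with limma-voom, and with the GC correction Hsp90ab1 was 0.086, Hsp90aa1 0.21 and Hspd1 0.12. In rescue against WT, Hspa8 was -0.27 with quantile normalisation, and leaving out 1 library gave -0.059 (without WT-11) to 0.082 (without WT-6), below 0 also without R-4 (-0.051). The Hsp90aa1 to Hsp90ab1 ratio turned to 0.12 against ∆Firre and 0.034 against WT with GC-corrected values.

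WT and ∆Firre share the replicate numbers 8 and 11. Deviations from the group means of libraries with the same number correlated at -0.033 and -0.041 over all genes. No other pairs of libraries were set beside them, so these values cannot decide whether the 2 numbers pair the libraries. A fit with the replicate block, which uses the same 4 libraries as the lower-numbered set, called 0 members, and gave Hspa1b 0.53, Hsp90aa1 0.036, Dnajb1 0.093, Hspe1 0.18 and Hspd1 0.038, the same values as within that set. It called 0 of all genes, as did the fit of these 4 libraries without the block.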
